A study of Mus musculus with 12 samples.

Results

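Fc gamma receptors bind the constant part of IgG and set how myeloid cells respond to antibody. The genes described here are the activating receptors Fcgr1, Fcgr3 and Fcgr4, the signalling chain Fcer1g, the inhibitory receptor Fcgr2b, and the neonatal receptor Fcgrt. They were taken by symbol, as 6 of the 35303 symbols in the count table, and all 6 were among the 17676 symbols that passed the filter on low counts. RNA was measured in 12 libraries of cultured mouse myeloid-derived suppressor cells (MDSCs), 4 in each of 3 groups. All cells were wild-type and were grown with IL-6 and GM-CSF from the bone marrow of young female C57BL/6 mice, purified as CD11b+Gr1+ cells, and kept for a further day with IL-6. The MDSC group was unmodified, MDSC-NP-Blk carried blank PLGA nanoparticles on the cell surface, and CITED carried rapamycin-loaded PLGA nanoparticles. The MDSC group has no particles, so it differs from CITED by particle and drug together. MDSC-NP-Blk differs from CITED by the rapamycin load. Particles were attached to cells cultured with an azido sugar, by incubation followed by washes. The paper does not state whether the MDSC group had this sugar and handling. In comparisons with MDSC, their effects therefore cannot be told apart from those of the particle.

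The purified population is a mixture of granulocytic and monocytic cells. Each library held between 20604809 and 37855478 counts. The floor used for marker genes, 3 counts, was therefore 7.92e-06% to 1.46e-05% of a library (counting error only). The labels name the CNS as tissue, but 5 of 6 CNS markers (Gfap, Mog, Snap25, Rbfox3 and Aqp4) had at most 3 counts in every library, and Mbp, the other one, had 1492 to 3240. The MDSC markers Itgam, Ly6g and Ly6c2 had at least 3712 counts in every library. In bulk RNA, fewer cells of a type and less RNA per cell cannot be told apart.

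The activating receptors have short tails and signal through the common gamma chain, the product of Fcer1g, whose ITAM motif holds a pair of tyrosines that Src family kinases phosphorylate to recruit Syk. The inhibitory receptor Fc gamma RIIB carries an ITIM motif with a tyrosine that recruits the phosphatase SHIP1 and dampens activating signals when both receptor types are engaged. The neonatal receptor, by contrast, pairs with beta-2-microglobulin inside the cell and returns IgG to the surface. The coding sequences of the ITAM of Fcer1g (bases 193 to 237 of 258 coding bases) and of the ITIM of Fcgr2b (bases 808 to 825 of 879) are shown because the contrast between activating and inhibitory receptors rests on them. They were read from transcripts of the mouse GENCODE release M39, and capitals mark the tyrosine codons.
ITAM of Fcer1g: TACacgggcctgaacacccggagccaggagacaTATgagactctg
ITIM of Fcgr2b: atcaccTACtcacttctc

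Fcgr2b, Fcgr4 and Fcgr3 lie side by side on chromosome 1 in GRCm39. Fcgr2b spans 170786186 to 170804177 on the minus strand with 7 exons in its canonical transcript, Fcgr4 spans 170846466 to 170857330 on the plus strand with 5, and Fcgr3 spans 170878738 to 170893549 on the minus strand with 5. Fcer1g is on the same chromosome, from 171057141 to 171062219 on the minus strand. Fcgr1 lies on chromosome 3 from 96190225 to 96201338 and Fcgrt on chromosome 7 from 44742412 to 44756819, both on the minus strand. Fcgr2b and Fcgr3 share sequence in the part that encodes their extracellular domains, which bears on how reads were divided between them. Of the 31-base words in Fcgr3 transcripts, 15.5% also occurred in Fcgr2b, and 7.35% of those in Fcgr2b occurred in Fcgr3. The longest identical run was 129 bases, at bases 402 to 530 of the canonical Fcgr2b transcript and 505 to 633 of that of Fcgr3.
Shared run of Fcgr2b and Fcgr3: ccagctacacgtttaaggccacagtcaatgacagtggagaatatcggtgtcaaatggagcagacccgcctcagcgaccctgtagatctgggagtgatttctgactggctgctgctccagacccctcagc
Salmon divides reads from such runs between genes by estimate, so the levels of this pair carry that uncertainty. Counting all other genes, Fcgr2b shared 10.3% of its words. Fcgr1 and Fcer1g shared none of these words with another gene, Fcgrt shared 0.241%, and Fcgr4 1.28%.

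Compared per transcript length, Fcer1g and Fcgr3 had the highest levels of the 6 genes, and Fcgrt had the lowest except in MDSC-NP-Blk replicate 4, where Fcgr1 was at 9.32 TPM and Fcgrt at 10.3. In TPM, which are counts per canonical transcript length scaled to the same sum in every library, the MDSC means were 914 ± 44.5 for Fcer1g, 754 ± 16.6 for Fcgr3, 308 ± 14.8 for Fcgr2b, 55.8 ± 3.52 for Fcgr4, 24.4 ± 2.83 for Fcgr1, and 6.77 ± 0.651 for Fcgrt (SD, n = 4). In CITED, the TPM means were 1330 ± 49.9, 1250 ± 29.8, 500 ± 12.6, 101 ± 3.8, 14.7 ± 0.466, and 10.3 ± 0.695 in that order. The order of the means was the same in MDSC-NP-Blk. The TPM ranges of Fcer1g and Fcgr3 met, at 1120 to 1210 against 1080 to 1160 in MDSC-NP-Blk and 1260 to 1360 against 1220 to 1290 in CITED, and those of Fcgr1 and Fcgrt met in MDSC-NP-Blk, at 9.32 to 14.7 against 8.06 to 10.6. TPM carries no correction for library composition, and differences between groups were therefore read from counts normalized with TMM factors.

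Fcgr2b rose with blank particles and rose further with rapamycin-loaded ones. Its normalized counts in replicates 1 to 4 were 10614, 10908, 10609.6, and 11502 in MDSC. They were 16267, 15978, 16556, and 15376 in MDSC-NP-Blk and 23357, 22426, 23495, and 22780.2 in CITED. The 3 groups did not overlap in any pairing, and the spread within a group was small, with a coefficient of variation between 2.17% and 3.85%. Against MDSC, its log2 fold change by edgeR's quasi-likelihood test was 1.08 ± 0.0442 (SE) in CITED, with an adjusted p of 2.1e-20. In MDSC-NP-Blk it was 0.56 (SE 0.0439, adjusted p = 1.3e-12 by edgeR). CITED was 1.43-fold above MDSC-NP-Blk, or 0.52 on the log2 scale (SE 0.0438, adjusted p = 2e-11 from edgeR), and this was the largest difference of the 6 genes in that comparison. With each of the 12 libraries left out in turn, that value stayed between 0.50 and 0.54.

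Fcgr3 encodes the low-affinity activating receptor and also rose, but most of its difference was already present with blank particles. MDSC libraries had normalized counts of 11864, 12751, 11749, and 12177. Those of MDSC-NP-Blk had 24594, 22517, 22172, and 24274, and those of CITED 26850.4, 25183, 26625, and 26009.5. Every CITED library lay above every MDSC-NP-Blk library, and both groups lay above MDSC. The log2 fold change against MDSC was 1.11 (0.0458, adjusted p = 2.6e-20) in CITED and 0.95 (0.0456, adjusted p = 5.8e-18) in MDSC-NP-Blk by edgeR. Between CITED and MDSC-NP-Blk it was 0.16 (0.0452, adjusted p = 0.0073), a 1.12-fold difference.

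Fcgr4, an activating receptor for IgG2 subclasses, had the largest log2 fold change of the 6 genes against MDSC. Its normalized counts were 693, 805, 704, and 776 in MDSC. They were 1530.4, 1539.9, 1582, and 1499 in MDSC-NP-Blk and 1875, 1626, 1722, and 1757 in CITED. Again no groups overlapped, although the lowest CITED library stood only slightly above the highest MDSC-NP-Blk library. The log2 fold change was 1.23 (0.0672, adjusted p = 4.1e-17) in CITED and 1.05 (0.0671, adjusted p = 7.3e-15) in MDSC-NP-Blk against MDSC by edgeR. Between the particle groups it was 0.18 (0.0651, adjusted p = 0.041), and this call was lost in 6 of 12 fits that left out a library. These were the fits without MDSC-NP-Blk replicate 1, 2, or 4 or CITED replicate 1, 3, or 4, and over all 12 fits the adjusted p was 0.023 to 0.15.

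Fcgr1, which encodes the high-affinity receptor, was the only one of the 6 genes that was lower with particles. MDSC libraries had normalized counts of 596, 756, 599.9, and 735. Those of MDSC-NP-Blk had 408, 520.0, 466, and 335, and those of CITED 570.4, 522, 508, and 506. Every library with particles lay below every MDSC library, whereas the particle groups overlapped each other. Fcgr1 fell by 0.62 on the log2 scale in MDSC-NP-Blk (SE 0.104, adjusted p = 6.8e-06 by edgeR) and by 0.35 in CITED (SE 0.103, adjusted p = 0.0052 by edgeR) against MDSC. Between CITED and MDSC-NP-Blk the log2 fold change was 0.27 (0.106, adjusted p = 0.063), with an approximate 95% interval from 0.066 to 0.481. It passed the threshold without MDSC-NP-Blk replicate 2 (adjusted p = 0.0089 from edgeR) or replicate 3 (0.041), and the adjusted p was as high as 0.26 in the other fits of this kind.

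Fcer1g, the shared signalling chain, rose with blank particles and was slightly higher again in CITED. Its normalized counts were 9076, 10009, 8961, and 8495 in MDSC. They were 16377, 14849.8, 14309, and 15522 in MDSC-NP-Blk and 18383, 16022, 17365, and 17187 in CITED. Both particle groups lay above MDSC in every library, and they overlapped each other through CITED replicate 2. The log2 fold change was 0.92 (0.0529, adjusted p = 1.8e-16) in CITED and 0.74 (0.0528, adjusted p = 1.1e-13) in MDSC-NP-Blk against MDSC by edgeR. The log2 fold change between CITED and MDSC-NP-Blk was 0.18 (0.0524, adjusted p = 0.012), and without CITED replicate 1 the adjusted p was 0.062 from the same edgeR test.

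Fcgrt, the receptor that recycles IgG, had few counts and rose with either particle. Normalized counts were 210.2, 242, 186.5, and 189.7 in MDSC. They were 436, 384, 314, and 411 in MDSC-NP-Blk and 405, 434, 378, and 417 in CITED. The particle groups overlapped widely, and neither overlapped MDSC. The log2 fold change against MDSC was 0.98 (0.111, adjusted p = 2.9e-09) in CITED and 0.90 (0.11, adjusted p = 3e-08) in MDSC-NP-Blk by edgeR. Between the particle groups it was 0.08 (0.107, adjusted p = 0.65), with an approximate 95% interval from −0.126 to 0.293, which leaves a difference of either sign possible. B2m, which encodes its partner chain, had log2 fold changes of 0.54 (adjusted p = 8.4e-13) and 0.48 (adjusted p = 3.6e-11) against MDSC in the same order by edgeR.

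**Figure D1:**
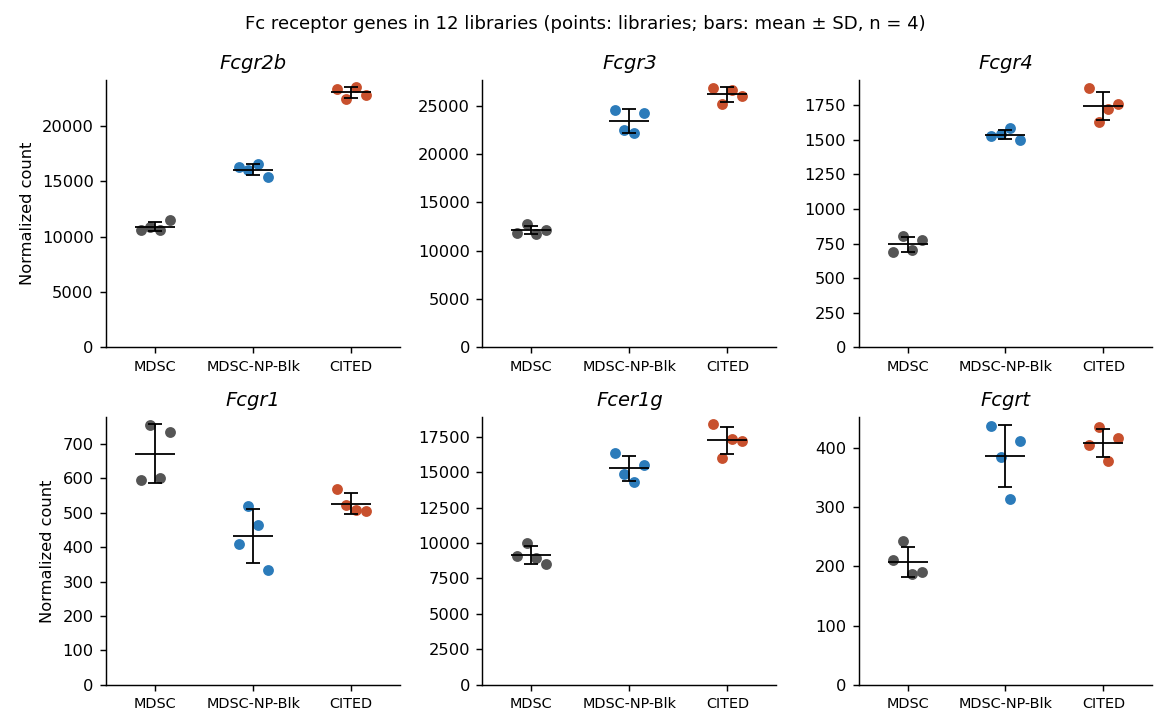
Normalized counts (vertical axes, from 0) of the 6 Fc receptor genes in the 12 libraries, with points for libraries and bars for the mean ± SD of 4 libraries in each group. Fcgr2b steps up from MDSC to MDSC-NP-Blk to CITED, Fcgr3, Fcgr4, Fcer1g and Fcgrt make most of their rise at MDSC-NP-Blk, and Fcgr1 is highest in MDSC.

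Calls were frequent among all genes. Between CITED and MDSC, 44.5% of all tested genes had an adjusted p below 0.05 by edgeR, and 6 of 6 Fc receptor genes did, 5 of them higher. The shares of all genes called higher and called lower were each 22.2%. In the comparison of MDSC-NP-Blk with MDSC, 38.6% of tested genes were called, 19.9% higher and 18.6% lower, and again 6 of 6 members, 5 of them higher. These comparisons share the 4 MDSC libraries, and their agreement is not independent. Between CITED and MDSC-NP-Blk, 22% of tested genes were called and 4 of 6 members (Fcgr2b, Fcgr3, Fcgr4 and Fcer1g), all 4 higher, against 10.5% of all genes called higher and 11.4% lower. The study also required a log2 change of 1 or more in either direction. With it, 3 members passed between CITED and MDSC (Fcgr2b, Fcgr3 and Fcgr4, all higher), beside 9.99% of all genes in either direction and 3.28% higher. The test of MDSC-NP-Blk and MDSC then left 1 member (Fcgr4, higher), beside 4.74% of all genes and 1.88% higher. These counts depended on the scaling: by library totals alone they were 0 and 0, and after transcript length correction 2 (without Fcgr3) and 0, by edgeR. It left 0 of the 6 between CITED and MDSC-NP-Blk by edgeR or DESeq2, beside 2.65% of all genes and 0.651% higher, although the unadjusted p of edgeR was below 0.05 for 5 members there. The groups did not overlap for 6, 6 and 3 members in these comparisons, in the same order, and for 42.5%, 35.6%, and 21.2% of all tested genes.

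**Figure D2:**
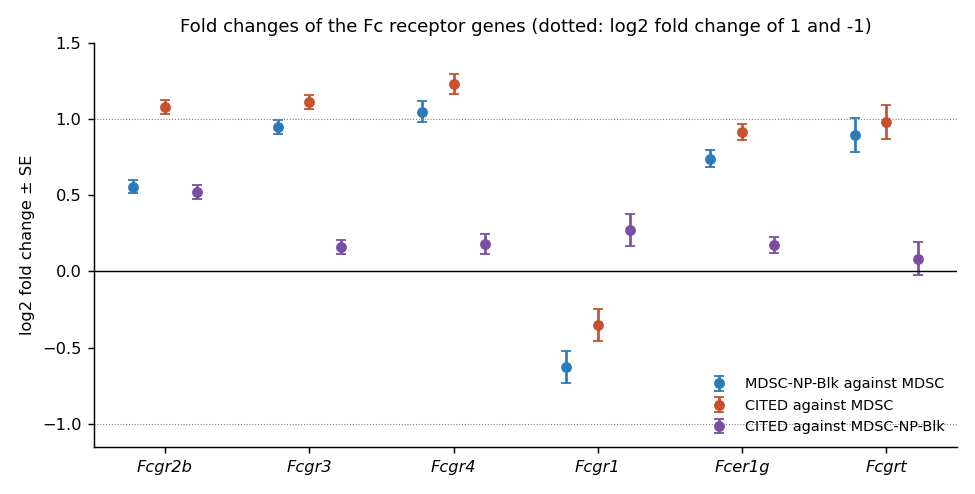
Log2 fold changes (vertical axis) of the 6 Fc receptor genes in the 3 comparisons, with bars for the standard error from edgeR and dotted lines at 1 and −1. For Fcgr2b the difference between CITED and MDSC-NP-Blk, 0.52, is nearly as large as that between MDSC-NP-Blk and MDSC, 0.56, and Fcgr1 is the only gene below 0 in the comparisons with MDSC.

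The balance of the inhibitory receptor against the activating ones was lower with blank particles than in the other groups. It was taken within each library as Fcgr2b divided by the sum of Fcgr1, Fcgr3 and Fcgr4, with counts per canonical transcript length, and it does not depend on the library factor. The ratio was 0.369, 0.35, 0.372, and 0.386 in the MDSC libraries. It was 0.277, 0.294, 0.309, and 0.266 in MDSC-NP-Blk and 0.36, 0.371, 0.368, and 0.364 in CITED. All MDSC-NP-Blk libraries lay below all others, whereas CITED lay within the range of MDSC. MDSC-NP-Blk stood at 0.775-fold of MDSC, a log2 difference of −0.368 (p = 0.0286 in a two-sided exact permutation test over libraries, adjusted p = 0.0429 over the 3 comparisons). CITED was 1.28-fold of MDSC-NP-Blk, a log2 difference of 0.356 (p = 0.0286, adjusted p = 0.0429 in the same exact test). With 4 libraries against 4 there are 70 splits, and 0.0286 is the smallest p they can give. CITED and MDSC differed by −0.0128 on the log2 scale (exact permutation p = 0.686, adjusted p = 0.686).

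The comparison of CITED with MDSC changed with a correction for transcript length. The Fcgr2b transcript is the longest of the 4 receptors (3403 bases, against 2642 for Fcgr1, 1545 for Fcgr3, and 1279 for Fcgr4). The libraries differed in how the relative level of a gene went with transcript length. Across 10542 genes, which are not independent replicates, Spearman's rho with length ranged from 0.218 to 0.346 (MDSC), from −0.422 to 0.0919 (MDSC-NP-Blk), and from −0.341 to −0.187 (CITED). When this trend was removed in each library, a step added after seeing the data, the balance averaged 0.297 ± 0.0101 in MDSC-NP-Blk, 0.332 ± 0.00932 in MDSC, and 0.391 ± 0.00757 in CITED (SD, n = 4). No groups then overlapped. CITED was 1.18-fold above MDSC, a log2 difference of 0.237 (p and adjusted p = 0.0286, exact permutation test), MDSC-NP-Blk differed from MDSC by −0.161 (adjusted p = 0.0286 in the same exact test), and CITED differed from MDSC-NP-Blk by 0.397 (adjusted p = 0.0286, exact). The lower ratio in MDSC-NP-Blk than in CITED was found with and without the correction, whereas the result for CITED against MDSC was not.

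**Figure D3:**
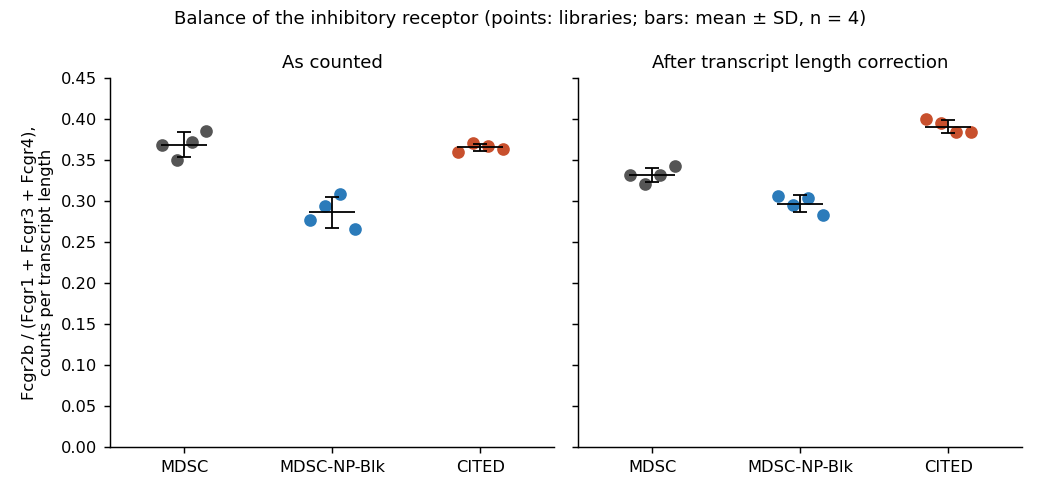
Ratio of Fcgr2b to the sum of Fcgr1, Fcgr3 and Fcgr4, in counts per transcript length (vertical axis, from 0), as counted on the left and after removal of the length trend of each library on the right, with points for libraries and bars for the mean ± SD of 4. MDSC-NP-Blk is lowest in both panels, and CITED moves from within the MDSC range to above it.

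The ratio was carried by Fcgr3, which made up most of the level of the 4 receptors. Per transcript length, Fcgr3 was 66.0% ± 0.795 of their sum in MDSC and 67.0% ± 0.089 in CITED, and it reached 71.3% ± 1.56 in MDSC-NP-Blk (SD, n = 4). In the order MDSC, MDSC-NP-Blk, CITED, Fcgr2b was 27.0% ± 0.793, 22.2% ± 1.14, and 26.8% ± 0.252, and Fcgr4 was 4.89% ± 0.186, 5.67% ± 0.284, and 5.4% ± 0.207. Fcgr1 went from 2.13% ± 0.195 in MDSC to 0.774% ± 0.161 and 0.789% ± 0.0395 with particles. Against Fcgr3 alone, the log2 difference of Fcgr2b between CITED and MDSC-NP-Blk was 0.358 (p = 0.0286, adjusted p = 0.0429, exact permutation test), and against Fcgr4 alone it was 0.34 with the same exact p-values. Against Fcgr1 alone, Fcgr2b was higher in both particle groups than in MDSC, by 1.42 in CITED and 1.2 in MDSC-NP-Blk on the log2 scale (adjusted p = 0.0429 for each, exact permutation test), which is the opposite sign to the ratio over all 3 receptors. The 0.219 between CITED and MDSC-NP-Blk did not pass (adjusted p = 0.143, exact). Against Fcer1g, the shared chain, the adjusted p was 0.0857 or higher for all 3 comparisons in the same exact test. Between CITED and MDSC-NP-Blk the log2 difference was 0.345 and the groups did not overlap. The unadjusted exact p there was 0.0286, the smallest possible. A single p of this size among 3 cannot fall below 0.05 after adjustment.

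The promoters of Fcgr1 and Fcgr4 are shown because these activating receptors moved in opposite directions. The letters searched on both strands were TTCNNNGAA for the GAS element that STAT factors bind, GAAA, NN and GAAA in a row for an interferon-stimulated response element (ISRE), and GAGGAA for PU.1, the product of Spi1. These occurred in 8.3%, 3.44%, and 28.3% of 32851 RefSeq promoters that run from 250 bases before to 50 bases after a start. The Fcgr1 window held a GAS and a PU.1 match, the Fcgr4 window an ISRE and a PU.1 match, the Fcgr3 windows a PU.1 match, and those of Fcgr2b, Fcer1g and Fcgrt none of the 3. Sequences are from RefSeq on GRCm38.p6, a different build from the positions above, with matches in capitals. A match in this window is a description and not a measured binding site.
Fcgr1 promoter, chr3:96293920-96294219, minus strand: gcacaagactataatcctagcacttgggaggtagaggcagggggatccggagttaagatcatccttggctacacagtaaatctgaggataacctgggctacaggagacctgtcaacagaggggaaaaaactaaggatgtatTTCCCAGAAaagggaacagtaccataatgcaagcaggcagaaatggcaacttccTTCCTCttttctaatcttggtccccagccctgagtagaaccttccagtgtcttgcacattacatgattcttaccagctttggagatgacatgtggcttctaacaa
Fcgr4 promoter, chr1:171018676-171018975, plus strand: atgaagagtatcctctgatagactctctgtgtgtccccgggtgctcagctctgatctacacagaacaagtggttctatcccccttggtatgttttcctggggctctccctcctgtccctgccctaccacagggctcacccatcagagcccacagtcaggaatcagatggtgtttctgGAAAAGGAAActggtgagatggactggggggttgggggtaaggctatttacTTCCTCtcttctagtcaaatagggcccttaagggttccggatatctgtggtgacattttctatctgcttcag

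Signals known to set Fc gamma receptor levels rose with particles more often than they fell. Of 16 listed genes, 11 were higher and 1 lower in CITED than in MDSC, and 12 were higher and 2 lower in MDSC-NP-Blk than in MDSC. Calls made up 75% and 87.5% of the list, beside 44.5% and 38.6% of all tested genes. The median log2 fold changes were 0.486 and 0.386, beside −0.0519 and −0.0274 over all tested genes. C5ar1, the receptor for the complement fragment C5a, was higher by 1.07 on the log2 scale (SE 0.0545, adjusted p = 6.6e-18) in CITED and by 0.83 (SE 0.0543, adjusted p = 1.1e-14) in MDSC-NP-Blk by edgeR. The chains of the IL-10 receptor were among the clearest, with 0.93 (0.0521, adjusted p = 9.6e-17) for Il10rb in CITED and 0.70 (0.0484, adjusted p = 4.7e-14) for Il10ra in MDSC-NP-Blk by edgeR. Tgfbr1, a TGF-beta receptor, was at −0.22 in both (adjusted p = 0.011 and 0.014, edgeR), but after transcript length correction at −0.02 and −0.09 (adjusted p = 0.86 and 0.33, edgeR). Between CITED and MDSC-NP-Blk, 5 of the 16 were higher and 0 lower at an adjusted p below 0.05 by edgeR, with Il10rb at 0.31 (adjusted p = 1.5e-05) and Il4ra at 0.29 (adjusted p = 1.3e-05). The 5 were 31.2% of the list, beside 22% of all tested genes called. Scaled by library totals alone, the counts were 9 higher and 5 lower in CITED, and 8 higher and 4 lower in MDSC-NP-Blk, against MDSC.

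Most of the listed receptors that signal through the chain of Fcer1g were higher in CITED than in either other group. Of 9 tested out of 11 listed, 7 were higher and 1 lower than in MDSC, and 6 were higher and 0 lower than in MDSC-NP-Blk at an adjusted p below 0.05 by edgeR. As shares of those tested, the calls were 88.9% and 66.7%, beside 44.5% and 22% of all tested genes. The lower one was Gp6, a collagen receptor of platelets, at −0.82 (SE 0.296, adjusted p = 0.022, edgeR). Its normalized counts were low, with means of 49.03 in MDSC and 27.47 in CITED. After transcript length correction, 7 of the list were higher and 0 lower than in MDSC, so this call was lost. The medians were 0.468 and 0.456 on the log2 scale, beside −0.0519 and 0 over all tested genes. Clec4d, a C-type lectin for microbial glycolipids, had the largest value, a log2 fold change of 1.95 (0.0527, adjusted p = 3.7e-25) in CITED and 1.37 (0.052, adjusted p = 1.7e-20) in MDSC-NP-Blk against MDSC by edgeR. Clec4n, which encodes Dectin-2, had 0.79 (0.0483, adjusted p = 8.6e-16) in CITED against MDSC and 0.66 (0.0482, adjusted p = 8e-13) against MDSC-NP-Blk by edgeR. In MDSC-NP-Blk against MDSC, 3 of the 9 were higher and 0 lower, with a median of 0.0178, and by library totals alone 2 were higher and 5 lower. The 3 were 33.3% of those tested, beside 38.6% of all tested genes called. The paired immunoglobulin-like receptors in this list (Pira genes) are near-identical copies, and their counts are uncertain. Other partners of this chain are not in the list. Of these, Fcgr3 and Fcgr4 were higher in CITED than in MDSC, and Fcgr1, Fcer1a and Ms4a2 were lower.

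Tyrobp, which encodes the other ITAM adaptor of myeloid cells, was higher with either particle, as were most of its listed receptors. Of 9 genes, 7 were higher and 2 lower in CITED than in MDSC (median log2 fold change 0.784), 8 were higher and 0 lower in MDSC-NP-Blk than in MDSC (0.513), and 6 were higher and 1 lower in CITED than in MDSC-NP-Blk (0.349), all by edgeR. Called genes were 100%, 88.9%, and 77.8% of the list, beside 44.5%, 38.6%, and 22% of all tested genes. Tyrobp itself had 1.26 (0.0494, adjusted p = 7.5e-21) in CITED and 0.91 (0.0491, adjusted p = 1.1e-16) in MDSC-NP-Blk against MDSC by edgeR. Trem1, an amplifier of inflammatory responses, had 1.02 (adjusted p = 2.5e-16) and 0.95 (adjusted p = 4.1e-15). In the lists of receptors and signals with 0 lower genes, edgeR's unadjusted p was below 0.05 for 1 lower gene in each comparison, or for 0 among the Tyrobp genes in MDSC-NP-Blk, and DESeq2 called 0. Trem3 went the other way in CITED, at −0.21 against MDSC (adjusted p = 0.012) and −0.59 against MDSC-NP-Blk (adjusted p = 2.5e-08).

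The signalling genes below the receptors moved in both directions. Of 28 genes of activating signalling, 13 were higher and 7 lower in CITED than in MDSC, with a median of 0.178, and 12 were higher and 7 lower in MDSC-NP-Blk, with a median of 0.0861. Calls in either direction were 71.4% and 67.9% of the list, beside 44.5% and 38.6% of all tested genes. The Src family kinase Fgr was among the higher ones in CITED, at 0.72 (0.0576, adjusted p = 7.4e-13), as was Bcl10, an adaptor to NF-kB, at 0.83 (0.0528, adjusted p = 2.7e-15), both by edgeR. Pik3r1, a regulatory subunit of PI3K, was at −0.52 (adjusted p = 1.1e-08) and Plcg2, a phospholipase C, at −0.31 (adjusted p = 1.3e-06). By library totals alone, 8 were higher and 13 lower in CITED, so the balance of directions in this list turned with the scaling.

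Of 16 genes of inhibitory signalling, 7 were higher and 6 lower in CITED than in MDSC, and 5 were higher and 5 lower in MDSC-NP-Blk. That is 81.2% and 62.5% of the list called, beside 44.5% and 38.6% of all tested genes. Dok1, which encodes a Ras-pathway inhibitor, was higher by 0.60 on the log2 scale (0.0706, adjusted p = 6.9e-09) in CITED against MDSC by edgeR. The tyrosine phosphatase gene Ptpn22 was at −1.35 (0.109, adjusted p = 1.2e-12) and Sla, an adaptor that lowers receptor levels, at −0.96 (0.0661, adjusted p = 1.8e-14). Inpp5d, which encodes SHIP1, the phosphatase recruited by Fc gamma RIIB, had −0.05 in CITED (adjusted p = 0.48) and −0.06 in MDSC-NP-Blk (adjusted p = 0.41), each with a standard error near 0.0499, by edgeR. Syk, which encodes the kinase recruited by the ITAM and is in the activating list, was higher than in MDSC in both particle groups. Its log2 fold change was 0.43 in CITED (adjusted p = 6.3e-09) and 0.33 in MDSC-NP-Blk (adjusted p = 1.4e-06) by edgeR. Inpp5d and Syk were picked out for their roles after their values were seen. Between CITED and MDSC-NP-Blk, 5 higher and 3 lower genes of activating signalling passed the test, and 3 higher and 3 lower of inhibitory signalling. They were 28.6% and 37.5% of these lists, beside 22% of all tested genes. By library totals alone, 2 genes of inhibitory signalling were higher and 8 lower in CITED than in MDSC.

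Genes of the actin and membrane machinery of phagocytosis were mostly higher with either particle after TMM normalization, but not by library totals alone. Of 24 tested out of 25, 16 were higher and 3 lower in CITED than in MDSC (median 0.26), and 17 were higher and 1 lower in MDSC-NP-Blk (median 0.211). Between CITED and MDSC-NP-Blk, 2 were higher and 2 lower at an adjusted p below 0.05 by edgeR. In the order of these 3 comparisons, calls were 79.2%, 75%, and 16.7% of the 24, beside 44.5%, 38.6%, and 22% of all tested genes. Coro1a, an actin regulator of leukocytes, had log2 fold changes of 0.64 and 0.63 against MDSC, and the GTPase gene Rac2 had 0.53 and 0.61. Dock2, an activator of Rac, was at −0.48 and −0.37. By those totals, 7 were higher and 8 lower in CITED, and 6 were higher and 9 lower in MDSC-NP-Blk.

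**Figure D4:**
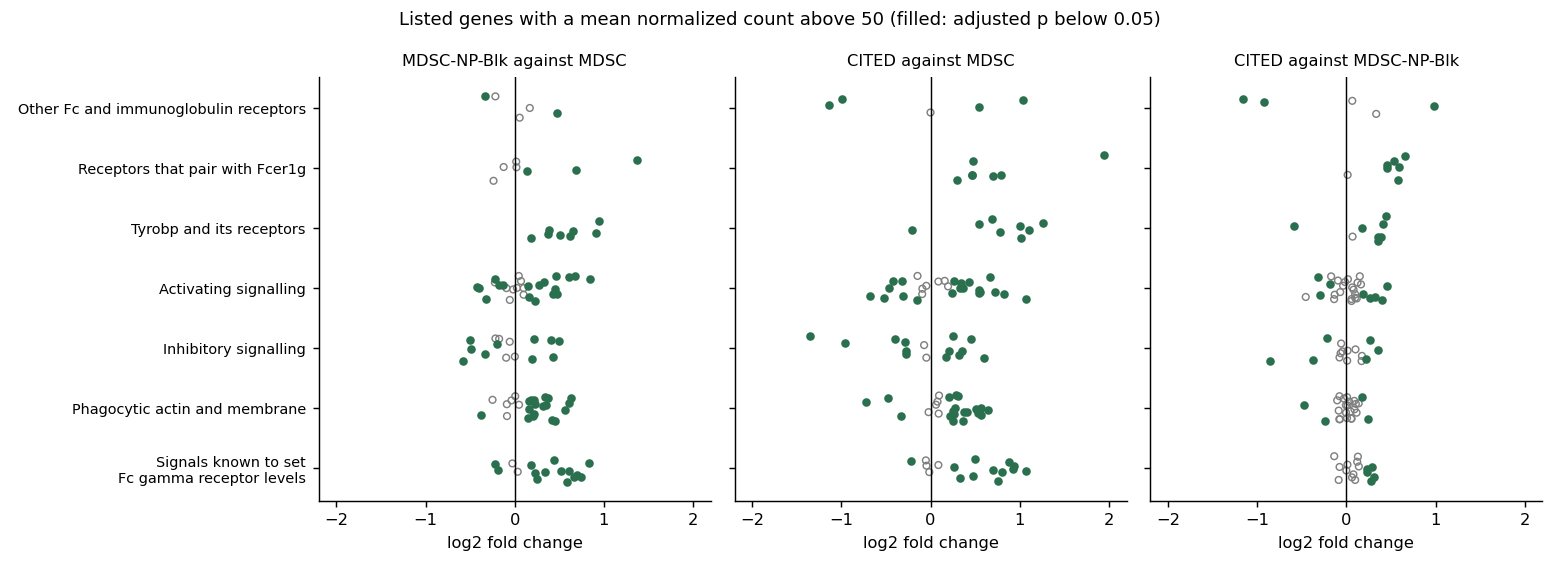
Log2 fold changes (horizontal axes) of the listed genes with a mean normalized count above 50, 1 list to a row and 1 comparison to a panel, with filled points for an adjusted p below 0.05 by edgeR. Most receptors that pair with Fcer1g lie to the right in both comparisons of CITED, and points of the signalling lists fall on both sides of 0.

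Some of the other Fc and immunoglobulin receptors were called, in both directions. Of 10 tested out of 14, 2 were higher and 2 lower in CITED than in MDSC, 1 was higher and 1 lower in MDSC-NP-Blk, and 1 was higher and 2 lower in CITED than in MDSC-NP-Blk. These calls were 40%, 20%, and 30% of the list, beside 44.5%, 38.6%, and 22% of all tested genes. Fcrlb, an intracellular relative of the Fc receptors, had normalized counts of 1103 ± 122 in CITED and 536 ± 67.0 in MDSC (SD, n = 4), a log2 fold change of 1.04 (0.102, adjusted p = 1.2e-10), and 0.06 in MDSC-NP-Blk (adjusted p = 0.72) by edgeR. CITED was above MDSC-NP-Blk by 0.98 (0.102, adjusted p = 2.5e-09). The high-affinity IgE receptor genes, whose products also pair with the common gamma chain, were lower in CITED, with −1.14 for Ms4a2 (0.13, adjusted p = 3.4e-09) and −0.99 for Fcer1a (0.27, adjusted p = 0.0025) against MDSC by edgeR. These genes mark mast cells and basophils.

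Among the 15 protein-coding genes within 250 kb of the start of Fcgr2b, 6 were higher and 1 lower in CITED than in MDSC, 3 higher and 1 lower in MDSC-NP-Blk than in MDSC, and 5 higher in CITED than in MDSC-NP-Blk at an adjusted p below 0.05 by edgeR. The calls were 46.7%, 26.7%, and 33.3% of the 15, beside 44.5%, 38.6%, and 22% of all tested genes. The 3 that were higher in every comparison were Fcgr2b, Fcgr3 and Fcgr4, which are members and raise these shares. Fcrlb was the other Fc receptor gene of the window that was called. Atf6 was the lower one, at −0.26 in CITED (adjusted p = 0.0024) and −0.22 in MDSC-NP-Blk (adjusted p = 0.013), and Fcrla, which lies between Fcrlb and Fcgr2b, had log2 fold changes of 0.02 and 0.06 (adjusted p = 0.99 and 0.94).

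Over the 12 libraries, the genes whose log2 CPM most resembled that of Fcgr2b were Atp6v0c (Pearson's r = 0.9952), a subunit of the vacuolar proton pump, and Plaur (0.9944), the urokinase receptor, among 10554 genes with a mean normalized count above 50. Those most like Fcgr3 were Tprg1l (0.9981) and Upp1 (0.9978), and those most like Fcgr4 were Sod2 (0.9968), the mitochondrial superoxide dismutase, and Tarm1 (0.9964), a receptor that pairs with the common gamma chain. For Fcgr1 they were Ywhab (0.9771) and Srm (0.948), for Fcer1g the pseudogene Tpt1-ps3 (0.9962), whose counts are uncertain because near-identical copies share its reads, and Prr13 (0.9954), and for Fcgrt Ssu72 (0.9905) and Hpcal1 (0.9874). These values describe libraries that fall into 3 groups, and much of each r is the difference between groups.

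Markers of other Fc receptor-bearing cells moved between the groups as well. In the order MDSC, MDSC-NP-Blk, CITED, the summed TPM of 5 B cell markers was 14.6 to 19.4, 6.39 to 11.0, and 3.15 to 4.71, and that of 6 mast cell and basophil markers was 349 to 380, 302 to 343, and 179 to 195, with Mcpt4 and Cma1 at 3 counts or fewer. Both sums were lowest in CITED. In MDSC-NP-Blk, by TMM-normalized counts, Mcpt8 and Cpa3 were higher than in MDSC by 0.25 and 0.33 on the log2 scale (adjusted p = 0.0011 and 0.00091, edgeR), although the TPM sum was lower. The 6 macrophage markers summed to 392 to 422, 343 to 407, and 374 to 402, but within them Csf1r rose by 1.00 and C1qa fell by 4.05 on the log2 scale in CITED against MDSC (adjusted p = 1.5e-19 for each, edgeR). The 6 dendritic cell markers summed to 281 to 314, 163 to 175, and 201 to 216. Itgax made up most of these sums, with mean TPM of 258, 131, and 170. By TMM-normalized counts, Itgax was at −0.221 (CITED) and −0.6 (MDSC-NP-Blk) against MDSC on the log2 scale (adjusted p = 0.00019 and 1.6e-12, edgeR). Ccr7 was above MDSC on this scale, at 0.26 (CITED) and 0.33 (MDSC-NP-Blk), with adjusted p = 0.0062 and 0.00066 by edgeR. In TPM, Ccr7 went the other way, with means of 34.9, 33.6, and 32.1. The 6 MDSC markers summed to 98500 to 107000, 101000 to 107000, and 76000 to 85000. S100a8 and S100a9, the bulk of these sums, had TMM-based log2 fold changes of −0.0047 and 0.0073 in CITED against MDSC (adjusted p = 0.96 and 0.93, edgeR). Itgam and Ly6g had 0.43 and 0.22 (adjusted p = 3.7e-10 and 0.0014, edgeR). In MDSC-NP-Blk against MDSC, S100a8, S100a9 and Ly6c2 were at 0.33, 0.448, and 0.39 (adjusted p = 5e-07, 4.3e-10, and 5.3e-09, edgeR). Itgam and Ly6g were at 0.241 and 0.23 there (adjusted p = 3.2e-05 and 0.00092, edgeR). Between CITED and MDSC-NP-Blk, S100a8 and S100a9 were at −0.334 and −0.441 (adjusted p = 1e-06 and 1.8e-09, edgeR). Itgam and Ly6g had 0.19 and −0.013 (adjusted p = 0.0014 and 0.94, edgeR). Ly6c2 and Ly6c1 were lower in CITED than in MDSC, at −0.345 and −1.04 (adjusted p = 3.9e-08 and 0.029, edgeR). Against MDSC-NP-Blk they were at −0.735 and −1.36 (adjusted p = 6.8e-15 and 0.0097, edgeR). Ly6c1 had 9 to 66 counts in a library. The 5 T cell markers summed to no more than 2.19, and 3 of 4 NK cell markers (Ncr1, Klra8 and Eomes) had at most 3 counts in every library. The part of these cells in the levels of the Fc receptor genes was not tested.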

How the data were processed

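Poly(A)-enriched RNA was sequenced as paired-end reads by the authors, who quantified transcripts with Salmon 1.4.0 against GENCODE transcripts of GRCm39 (release not stated) and summed them per gene with tximport in R 4.3.2. The deposited values are whole-number counts per symbol, without normalization or filtering. An entry with an empty symbol and 0 counts was left out. The groups and replicate numbers were taken from the sample titles, which call the 4 libraries of a group biological replicates. If they came from a shared culture, p-values measure only the spread between these libraries.

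Symbols with 2 or more counts in total (17676) were tested with edgeR 4.0.16 in R 4.3.3 (TMM factors, quasi-likelihood test, group as the only term, all 12 libraries in a single fit). The Benjamini-Hochberg adjustment ran over all of them. Standard errors (SE) were the size of the log2 change over the root of F. Normalized counts are on the scale of the mean library. Lengths and positions are those of the canonical transcripts of the mouse GENCODE release M39. Length trends were removed with a loess curve in each library. Ratios were compared with two-sided exact permutation tests. Steps were tested on simulated data. Figures were drawn with Python 3.11.15 and matplotlib 3.10.9.

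The genes and lists were chosen with earlier results of these data known. The text names the 6 members and, per list and comparison, genes among the 2 with the lowest p in each direction at a mean normalized count above 50. It also names the 2 genes most like each member and genes near Fcgr2b. Outside this rule it names Gp6, whose mean is below 50, and Syk and Inpp5d for their roles. Marker lists were written down with the cell types. Alternatives were DESeq2 1.42.0, other factors and filters, the 8 libraries of a comparison, a replicate block, a length correction, a fold change threshold, other ratios, and fits without each library. Ratios with Fcgr3 and Fcgr4 only, and after length correction, were added after seeing the data.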

Additional observations from a re-analysis of the deposited data

How the results depend on the processing

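The direction of all 6 genes against MDSC, and their calls at an adjusted p below 0.05, held under every alternative to the test, normalization, filter and samples, and in each fit without a library. With a log2 change of 1 or more required as well, 1765 genes and 3 members were called in CITED against MDSC, 838 and 1 in MDSC-NP-Blk against MDSC, and 469 and 0 between the particle groups. By library totals alone, 0 members passed both thresholds in each comparison, and after length correction 2, 0 and 0 did, since Fcgr3 was at 0.90 in CITED and Fcgr4 at 0.84 in MDSC-NP-Blk. Library totals alone lowered the median log2 fold change of genes with a mean above 50 from 0.0156 to −0.258 in CITED and from 0.0025 to −0.259 in MDSC-NP-Blk, against MDSC. They changed the split of higher and lower calls from 3930 and 3932 to 2192 and 6323, and from 3522 and 3293 to 1662 and 6107. Fcgr2b then had log2 fold changes of 0.80 and 0.29, Fcgr3 0.83 and 0.68, and Fcgr1 −0.62 and −0.89. In the same order, leaving out each library gave 7349 to 7955, 6260 to 6851, and 3425 to 3999 genes and 6 to 6, 6 to 6, and 2 to 5 members. The low value, 2, came without CITED replicate 1, where Fcgr4 (adjusted p = 0.15) and Fcer1g (0.062) were lost in edgeR's test. Fcgrt between CITED and MDSC-NP-Blk reversed without MDSC-NP-Blk replicate 3 (range −0.001954 to 0.1451). In that comparison Fcgr4 also lost its call by library totals alone (0.059) and after length correction (0.061), and Fcgr1 gained one after length correction (0.049) and with a minimum of 1 count (0.045), all adjusted p from edgeR.

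The log2 balance of CITED against MDSC changed sign with counts not divided by length (0.0077, adjusted p = 0.8), Fcgr1 alone (1.42, 0.0429), the mean of log2 values (0.413, 0.0429), Fcer1g in their place (0.161, 0.114), length correction (0.237, 0.0286), and without MDSC replicate 4 (leave-one-out range −0.0386 to 0.00847), all in exact permutation tests. For MDSC-NP-Blk against MDSC it was 1.2 with Fcgr1 alone (exact adjusted p = 0.0429), 0.107 with the mean of log2 values (0.0857), and −0.185 with Fcer1g (0.0857), and −0.405 to −0.333 without each library. For CITED against MDSC-NP-Blk it was 0.219 with Fcgr1 alone (exact adjusted p = 0.143) and 0.345 with Fcer1g (0.0857, unadjusted 0.0286), and 0.32 to 0.393 without each library. With Fcgr3 and Fcgr4 only, the differences were −0.0399, −0.397, and 0.357.

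Same-numbered libraries did not deviate together, with correlations of −0.0393 to 0.0742, −0.0598 to 0.027, and −0.0576 to 0.14 in the 3 comparisons, so the numbers were not taken as pairs. With the replicate number as a block, 7828, 6927, and 4182 genes were called, and Fcgr1 passed between CITED and MDSC-NP-Blk (log2 fold change 0.29, adjusted p = 0.0094 from edgeR).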
